A study of Rattus norvegicus with 22 samples.

Results

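Neuregulins and their ErbB receptors were followed by bulk RNA sequencing in the ventral part of the rat cervical spinal cord, segments C3 to C6. The members were chosen by name: the neuregulins Nrg1, Nrg2 and Nrg3, the ligands betacellulin (Btc) and heparin-binding EGF-like growth factor (Hbegf), and the receptors Egfr, Erbb2, Erbb3 and Erbb4. Of these 9 genes, 8 had an entry among the 32883 genes of the count table, and Nrg3 was not analysed here. The 8 genes passed the filter on low counts in each comparison.

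The tissue came from 22 adult Sprague-Dawley rats aged 3 to 4 months in 4 groups: 5 intact males, 5 castrated males (GDX), 6 intact females and 6 ovariectomised females (OVX). GDX and OVX rats were studied 2 weeks after the gonads were removed. No sham operation or stage of the ovarian cycle is used here as a group. One library was made per rat, and the libraries held between 12371756 and 17571887 counted reads. Levels are given as CPM, the read count of a gene scaled to a common library size, and they are compared between rats for a gene but not between genes, because gene lengths were not used. The libraries also differed in fragment size: 15 had short and 7 had long fragments. All 11 GDX and OVX libraries were short, against 2 of 5 intact males and 2 of 6 intact females, so that gonadectomy and fragment size can be separated only through those 4 intact rats.

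As background, neuregulins are EGF-like growth factors made mostly as membrane-bound precursors and released by proteases. They bind Erbb3 and Erbb4. Erbb2 has no known ligand of its own and acts as the partner of the other receptors, while the kinase of Erbb3 is weak, so that Erbb3 signals through such partners. Egfr is bound by Btc, Hbegf and Tgfa, and Btc and Hbegf also bind Erbb4. In the spinal cord, Nrg1 is made by motor neurons, which use it at the nerve terminal and along the axon, where Erbb3 of Schwann cells receives it. Erbb3 is also found in the oligodendrocyte lineage, and Erbb4 in neurons, among them inhibitory interneurons.

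The tissue label was checked against cell markers. The 6 motor neuron markers (Chat, Slc18a3, Slc5a7, Isl1, Mnx1 and Prph) were present, and intact males had a summed level of 447 ± 118 CPM (SD, n = 5), intact females one of 523 ± 66.6 CPM (SD, n = 6). Prph, a neurofilament-related protein of motor neurons, took the most reads of the list, with no account of gene length. None of the 13 marker lists held a gene at 0 in a whole group.

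**Figure D1:**
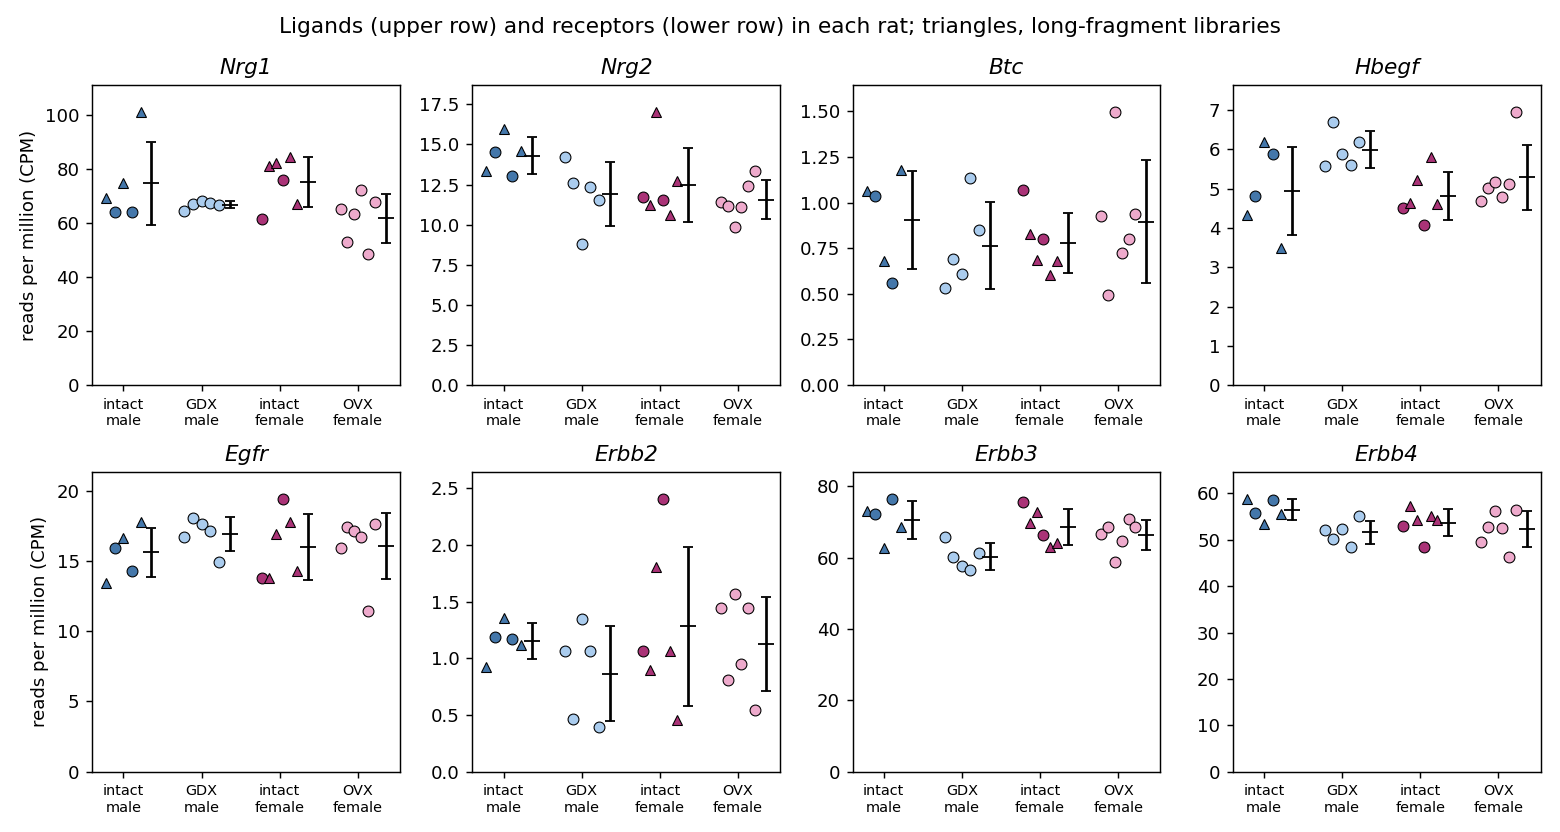
Level of each of the 8 genes in each rat, in CPM on an axis from 0, with ligands above and receptors below. Each point is a rat, circles are short-fragment and triangles long-fragment libraries, and the bars are the mean ± SD of the group. Erbb3 lies lower in GDX males (56.4 to 65.9 CPM) than in most intact males (62.7 to 76.5 CPM), and Nrg1 reaches 101 CPM in a single intact male.

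Depth differed widely among the members and set how precisely each could be compared. Erbb3 (ENSRNOG00000004964) had 785 to 1341 reads per library, Nrg1 (ENSRNOG00000010392) 604 to 1539 and Erbb4 (ENSRNOG00000014248) 578 to 947. Egfr (ENSRNOG00000004332) had 143 to 313 reads, Nrg2 (ENSRNOG00000019093) 130 to 273 and Hbegf (ENSRNOG00000018646) 53 to 116. Erbb2 (ENSRNOG00000006450) and Btc (ENSRNOG00000002728) were covered by few reads, 6 to 33 and 8 to 20 per library. For these 2 genes a change of moderate size was not detectable at this depth.

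Castration was examined first, to ask how loss of the testes altered the male spinal cord. Erbb3, the receptor that binds neuregulins but depends on a partner kinase, was the single member called changed: it fell by 14.5% in GDX males. In the 5 intact males Erbb3 stood at 73.2, 72.2, 62.7, 76.5 and 68.5 CPM (rats 1, 2, 3, 5 and 6). In the 5 GDX males it stood at 65.9, 60.2, 57.8, 56.4 and 61.4 CPM (rats 1, 2, 4, 5 and 6). The ranges overlapped through intact male 3 and GDX male 1, and 4 of 5 GDX males lay below every intact male. Group means were 70.6 ± 5.27 CPM (SD, n = 5) and 60.3 ± 3.69 CPM (SD, n = 5).

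The log2 fold change of Erbb3 was -0.23 (SE 0.059, 95% interval -0.35 to -0.10, adjusted p = 0.028 by edgeR's quasi-likelihood test with Benjamini-Hochberg adjustment over all genes). A gene was called changed at an adjusted p under 0.1. Castration was followed by 1995 called genes among 14931 tested, or 13.4%, of which 1012 were higher (6.78% of genes tested) and 983 lower (6.58%). Without GDX male 5 the number called was 1202. Against this background, 1 of 8 members called is close to the share among all genes. At an unadjusted p under 0.05 there were 3 of 8, Erbb3, Erbb4 and Nrg2, against 3549 of 14931 genes. The median log2 fold change of the 8 members was -0.19, with 6 below 0, against 0.0021 over all genes tested.

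Fragment size bears on this comparison because every GDX library was short. The 2 intact males with short-fragment libraries had 72.2 and 76.5 CPM of Erbb3, both above the 5 GDX males. Within short-fragment libraries the log2 fold change was -0.30 (SE 0.070, adjusted p = 0.0859 by edgeR), and with fragment size as a term in the model of all 10 males it was -0.30 (SE 0.072, adjusted p = 0.0598 by edgeR). Over the alternatives tried, the adjusted p of Erbb3 ran from 0.00838 to 0.92.

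The alternative that ended the call had the level of a list of cell markers as a term. Markers of meninges and fibroblasts were higher in GDX males for 5 of 5 genes tested, of 6 listed (Col1a1, Slc6a13, Lum, Dcn and Pdgfrb; median log2 fold change 1.01), and their summed level was 189 ± 64.1 CPM (SD, n = 5) against 76.0 ± 21.2 CPM (SD, n = 5) in intact males. In intact males the sum was 102, 85.4, 80.8, 65.1 and 46.4 CPM (rats 1, 2, 3, 5 and 6), and in GDX males it was 96.3, 151, 212, 252 and 232 CPM (rats 1, 2, 4, 5 and 6). With the mean level of this list as a term, the log2 fold change of Erbb3 was -0.086 (SE 0.098, adjusted p = 0.92 by edgeR), and 1 of 14931 genes was called in all. Because the list itself was higher after castration, this fit separates list and castration only in part. The SE of Erbb3 was 0.059 without the term. Col1a1, the gene of a fibrillar collagen chain, took the most reads of the list, with no account of gene length, at a mean of 117 CPM in GDX males and 33.4 CPM in intact males.

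Other cell markers moved in the same comparison. Among Schwann cell markers, Prx, which encodes a protein of peripheral myelin, rose by 1.07 on the log2 scale by edgeR and was not called by DESeq2. The summed level of the Schwann list was 62.3 ± 21.9 CPM after castration against 34.8 ± 15.6 CPM without it (SD, n = 5 each). Markers of endothelial cells were higher for 4 of 4 genes and those of red blood cells for 3 of 3 entries. In the oligodendrocyte lineage, a known site of Erbb3, 1 of 6 markers of mature cells rose (Mbp, by 0.17 on the log2 scale) and 1 of 4 precursor markers (Pdgfra, by 0.23). The summed level of the mature oligodendrocyte list was 25682 ± 1195 CPM (SD, n = 5) in GDX males and 23638 ± 1350 CPM (SD, n = 5) in intact males. Mbp took the most reads of this list, with no account of gene length.

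Some neuronal markers were lower after castration. Of 5 general neuronal markers, 2 fell (Rbfox3 and Snap25), as did 2 of 5 markers of inhibitory interneurons (Slc6a5 and Slc32a1, transporters of inhibitory transmitters) and 1 of 6 motor neuron markers (Slc18a3, the vesicular acetylcholine transporter). The log2 fold changes of the motor neuron list ran from -0.45 to 0.054, with 5 of 6 below 0, and those of the general and the inhibitory lists were below 0 for 5 of 5 markers each. Of 6 astrocyte markers, 2 rose (Gfap and Aqp4). None of 5 microglial, 3 ependymal or 2 dorsal horn markers tested was called by edgeR, with 1, 0 and 1 at an unadjusted p under 0.05, and DESeq2 called 1 of them, the microglial P2ry12. The part of these cell types in the lower Erbb3 was not tested beyond the values given, and in bulk tissue fewer cells of a type and less RNA per cell cannot be told apart.

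The other receptors did not pass the test after castration. Erbb4, the neuregulin receptor with an active kinase, stood at 58.8, 55.8, 53.4, 58.6 and 55.6 CPM in intact males (rats 1, 2, 3, 5 and 6). In GDX males it stood at 52.0, 50.1, 52.2, 48.5 and 55.2 CPM (rats 1, 2, 4, 5 and 6), so that 4 of 5 GDX males lay below every intact male. The log2 fold change was -0.13 (SE 0.049, adjusted p = 0.121 by edgeR), and Erbb4 passed the threshold when intact male 3 (adjusted p = 0.0924 by edgeR) or GDX male 6 (adjusted p = 0.0885 by edgeR) was left out. Egfr, the receptor of EGF-type ligands, had a mean of 16.9 ± 1.21 CPM after castration and 15.6 ± 1.77 CPM without it (SD, n = 5 each), with overlapping ranges. Erbb2, the partner receptor without a ligand, had a log2 fold change of -0.42 with a 95% interval of -1.11 to 0.27, and was measured by 6 to 20 reads in these males.

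Among the ligands, none passed the test in males. For Nrg2 the mean of GDX males was 11.9 ± 1.99 CPM, that of intact males 14.3 ± 1.15 CPM (SD, n = 5 each). Its log2 fold change was -0.26 (SE 0.11, adjusted p = 0.16 by edgeR), and it was called when GDX male 1, the highest of its group at 14.2 CPM, was left out (log2 fold change -0.33, adjusted p = 0.065 by edgeR). Without GDX male 4, the lowest at 8.78 CPM, the value was -0.17 (adjusted p = 0.29 by edgeR), and it was -0.13 both with the meningeal list as a term (adjusted p = 0.934 by edgeR) and with rat number as a block (adjusted p = 0.499 by edgeR). For Nrg1 these means were 66.9 ± 1.39 and 74.7 ± 15.4 CPM (SD, n = 5 each). The spread of intact males came from rat 6, at 101 CPM, and without it the log2 fold change went from -0.16 to -0.026. The 2 intact males with short-fragment libraries had 64.0 and 64.2 CPM of Nrg1, below the 5 GDX males. Within short-fragment libraries the direction turned, with a log2 fold change of 0.062 (adjusted p = 0.623 by edgeR), as it did with fragment size as a term (0.060, adjusted p = 0.81 by edgeR) and with the meningeal list as a term (0.088, adjusted p = 0.946 by edgeR). Hbegf and Btc had log2 fold changes of 0.28 and -0.24, with 95% intervals that include 0.

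**Figure D2:**
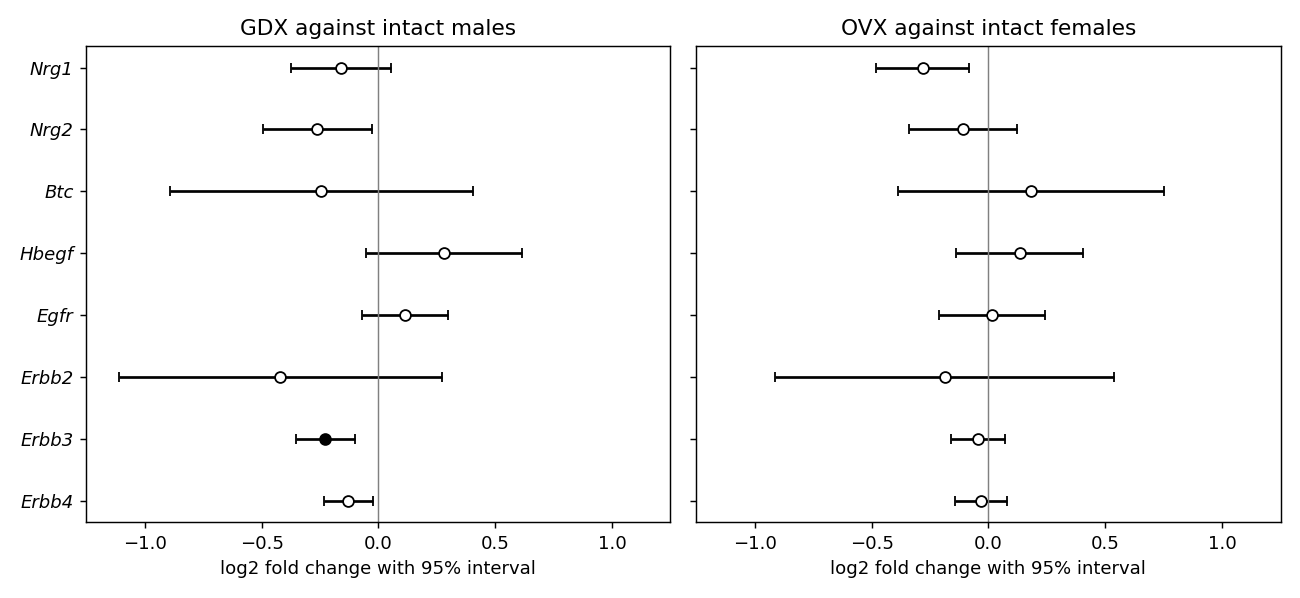
Log2 fold change of each member with its 95% interval, GDX against intact males (left, 5 and 5 rats) and OVX against intact females (right, 6 and 6 rats). The filled point has an adjusted p under 0.1 by edgeR. The interval of Erbb3 in males runs from -0.35 to -0.10, and those of Erbb2 and Btc are the widest shown.

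Ovariectomy was examined next, for the effect of ovary removal on the female cord. No member was called by edgeR or by DESeq2, and 1 of 8 (Nrg1) had an unadjusted p under 0.05, against 1516 of 14910 genes. By edgeR 5 of 14910 genes tested were called after ovariectomy, or 0.0335%, and DESeq2 called 174. This count depended on single rats: leaving out 1 rat gave from 0 (without OVX female 1 or 6) to 38 (without OVX female 4) and 113 (without intact female 1). The median log2 fold change of the 8 members was -0.038, with 5 below 0, against 0.0026 over all genes tested.

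Nrg1, the neuregulin of motor neurons, had the smallest p of the members in females. Intact females ranged from 61.3 to 84.3 CPM around a median of 78.5 CPM, and OVX females from 48.4 to 72.4 CPM around a median of 64.3 CPM. The ranges overlapped, and 4 of 6 intact females lay above every OVX female. The log2 fold change was -0.28 (SE 0.094, 95% interval -0.48 to -0.082, unadjusted p = 0.00854, adjusted p = 0.307 by edgeR), which did not pass the adjusted threshold. The intact females with long-fragment libraries averaged 78.6 ± 7.92 CPM (SD, n = 4) of Nrg1, and the 2 with short-fragment libraries had 61.3 and 75.9 CPM. Within short-fragment libraries the log2 fold change of Nrg1 was -0.15 (adjusted p = 0.886 by edgeR), and with fragment size as a term it was -0.15 (adjusted p = 0.85 by edgeR).

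For Erbb3 the female values were close in both groups. Intact females ranged from 63.0 to 75.5 CPM (median 68.0 CPM) and OVX females from 58.7 to 71.0 CPM (median 67.6 CPM). The log2 fold change was -0.043 with a 95% interval of -0.16 to 0.072. Erbb4 averaged 53.7 ± 2.93 CPM (SD, n = 6) in intact and 52.3 ± 3.91 CPM (SD, n = 6) in OVX females, and Egfr 16.0 ± 2.37 and 16.1 ± 2.33 CPM (SD, n = 6 each). The remaining members had log2 fold changes from -0.19 (Erbb2) to 0.18 (Btc), with adjusted p of 0.792 or more by edgeR.

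None of 61 marker entries tested was called after ovariectomy by edgeR, with 23 at an unadjusted p under 0.05 against 1516 of 14910 genes, and DESeq2 called 5 (Gpr17, Hbb, Nefl, Slc18a3 and Slc1a3). Of the 23, 4 were the 4 endothelial markers tested (median log2 fold change 0.49) and 4 the 4 entries of red blood cells (median 0.87). The endothelial list summed to 101 ± 26.5 CPM (SD, n = 6) in intact and 141 ± 19.3 CPM (SD, n = 6) in OVX females, and the red blood cell list to 18.8 ± 8.84 and 34.8 ± 7.16 CPM (SD, n = 6 each). The meninges and fibroblast list summed to 147 ± 51.6 CPM (SD, n = 6) in intact females and 188 ± 33.7 CPM (SD, n = 6) in OVX females, and the Schwann list to 76.6 ± 21.4 and 77.3 ± 14.3 CPM (SD, n = 6 each), with 0 of 5 genes of either list at an unadjusted p under 0.05. Intact males were the group with the lowest mean of both lists. The 6 motor neuron markers had log2 fold changes from -0.67 to -0.24 after ovariectomy, with a median of -0.38 and 5 at an unadjusted p under 0.05, and their summed level was 523 ± 66.6 CPM (SD, n = 6) in intact and 406 ± 63.8 CPM (SD, n = 6) in OVX females. Their part in the Nrg1 difference was not tested.

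Whether the sexes responded differently was tested in a model of the 22 rats. Of 15562 genes tested, 18 were called by edgeR (0.116%) and 243 by DESeq2, and leaving out 1 rat gave from 1 (without GDX male 5) to 275 (without GDX male 1) by edgeR. None of the members was called by edgeR or by DESeq2, with 1 of 8 at an unadjusted p under 0.05, against 1810 of 15562 genes. That member was Erbb3, with a difference, male minus female response, of -0.18 on the log2 scale (SE 0.082, 95% interval -0.35 to -0.0096, unadjusted p = 0.0392, adjusted p = 0.398 by edgeR). The fall of Erbb3 in males was therefore not shown to differ from the female response.

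The sexes were also compared directly. Between intact males and intact females, 599 of 14937 genes were called by edgeR (4.01%), and 352 without intact male 1 or 385 without intact male 5. It was 18 with the meningeal list as a term, and the count also fell far within short-fragment libraries. No member was called by edgeR or by DESeq2, with 0 of 8 at an unadjusted p under 0.05, against 2317 of 14937 genes. Nrg2 had a log2 fold change of 0.20 towards males (SE 0.11, adjusted p = 0.421 by edgeR). Among intact females, rat 3 stood at 17.0 CPM of Nrg2 and the others between 10.6 and 12.7 CPM. Without this rat Nrg2 was called, with a log2 fold change of 0.31 (adjusted p = 0.0775 by edgeR). In this comparison the Schwann marker Prx and the meningeal markers Slc6a13 and Dcn were lower in intact males, by 1.16 to 1.50 on the log2 scale.

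Between GDX males and OVX females, whose libraries were all short, 35 of 15084 genes were called by edgeR (0.232%), 23 without OVX female 1, and 130 by DESeq2. No member was called by edgeR or by DESeq2, and 1 of 8 had an unadjusted p under 0.05, against 1413 of 15084 genes. Erbb3 was again that gene, at 60.3 ± 3.69 CPM (SD, n = 5) in GDX males and 66.4 ± 4.32 CPM (SD, n = 6) in OVX females. Its log2 fold change was -0.13 (SE 0.055, adjusted p = 0.453 by edgeR).

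Fragment size alone was compared within intact rats, long against short libraries with sex as a term, a comparison chosen after the data had been seen. It called 1 of 15401 genes (0.00649%) and none of the members by edgeR, with 1 of 8 at an unadjusted p under 0.05, against 1185 of 15401 genes. The member was Nrg1, with a log2 fold change of 0.27 towards long fragments (SE 0.097, adjusted p = 0.513 by edgeR). Erbb3 had a value of -0.10 (SE 0.056, adjusted p = 0.722 by edgeR), lower in long-fragment libraries.

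The order of the 4 groups was read from the means. For Erbb3 it ran from intact males (70.6 CPM) through intact females (68.6 CPM) and OVX females (66.4 CPM) to GDX males (60.3 CPM). The 3 upper means lay within 1 SD of their neighbours, and the step down to GDX males, of 6.05 CPM, was larger than the SD of either neighbour. For Nrg1 the order was intact females, intact males, GDX males and OVX females, from 75.3 to 61.7 CPM, and no step between neighbours exceeded the larger SD. The highest group mean was 1.22 times the lowest for Nrg1, 1.24 times for Nrg2 and for Hbegf, and 1.17 times for Erbb3. It was 1.48 times for Erbb2 and 1.18 times for Btc, which rest on few reads. For Erbb4 and Egfr these ratios were 1.09 and 1.08, so that these 2 receptors were the members whose group means differed least.

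The rest of the ErbB pathway was described with 67 other genes sorted by role. In males 62 of them were tested, and 9 were called after castration by edgeR (14.5% of those tested, against 13.4% of all genes): 5 were higher and 4 lower. DESeq2 called 11, these 9 among them. Their median log2 fold change was -0.014 over the 62 genes. The list as a whole therefore moved about as often as genes in general and in both directions.

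Upstream of the receptors, 1 of 6 other ligands had enough reads to be tested, and it rose: Tgfa, a ligand of Egfr, went from 79.6 ± 3.16 to 93.0 ± 5.32 CPM (SD, n = 5 each; log2 fold change 0.22, adjusted p = 0.0125 by edgeR). Of 6 genes of ligand processing 1 rose, Adam10, a protease that sheds membrane-bound ligands (log2 fold change 0.14, adjusted p = 0.062 by edgeR). Among 13 adaptors, which bind the phosphorylated receptors, Shc2 fell by 0.26 on the log2 scale (adjusted p = 0.05 by edgeR). Of 19 kinases and GTPases 1 rose, Mapk3, which encodes the kinase ERK1, from 114 ± 3.96 to 136 ± 9.67 CPM (SD, n = 5 each; log2 fold change 0.26, adjusted p = 0.00848 by edgeR).

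Among 14 inhibitors and feedback genes 1 fell, Cbl, the ubiquitin ligase that marks active receptors for degradation, from 48.3 ± 2.38 to 41.7 ± 2.17 CPM (SD, n = 5 each; log2 fold change -0.21, adjusted p = 0.0263 by edgeR). Of 2 synaptic scaffolds, Dlg4, which encodes PSD-95 and binds Erbb4 at synapses, fell by 0.15 on the log2 scale (adjusted p = 0.029 by edgeR). Transcripts induced by the pathway went both ways. Ccnd1 (cyclin D1) rose by 0.27 and Egr1 by 0.42, while the transcription factor Etv5 fell by 0.29 on the log2 scale, and the other 4 of 7 were not called.

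Mapk3 kept its call under as many alternatives as Erbb3, and the other calls under fewer. Within short-fragment libraries 1 of 9, Mapk3, was still called, and with fragment size as a term 3 of 9 were (Mapk3, Ccnd1 and Tgfa). With the meningeal list as a term, which left 1 called gene in all, none of 9 was called by edgeR (adjusted p 0.763 or more), and each kept its direction. The log2 fold changes of Tgfa, Ccnd1, Adam10, Egr1 and Cbl with this term were 0.22, 0.22, 0.15, 0.45 and -0.17, close to those without it. Those of Mapk3 (0.16), Etv5 (-0.16), Dlg4 (-0.066) and Shc2 (-0.044) were nearer to 0. Leaving out any 1 rat kept 6 of 9 calls, while Shc2 and Egr1 were lost in 7 of 10 such fits and Adam10 in 5 of 10.

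After ovariectomy none of 62 tested pathway genes was called by edgeR, with 9 at an unadjusted p under 0.05 against 1516 of 14910 genes, and DESeq2 called 2 (Lrig1 and Mapk3). For the difference between responses and between GDX males and OVX females, edgeR called none of 63 in either, and DESeq2 called 0 and 1 (Dlg4). At an unadjusted p under 0.05 there were 9 of 63 against 1810 of 15562 genes for the difference between responses, and 12 of 63 against 1413 of 15084 genes between GDX males and OVX females. Between intact males and intact females 12 of 62 had an unadjusted p under 0.05, against 2317 of 14937 genes. Of the 62, 1 was called by edgeR, against 4.01% of all genes: Cbl, higher in males by 0.20 on the log2 scale (adjusted p = 0.0424 by edgeR). This call was lost without intact male 1 (adjusted p = 0.116 by edgeR) or intact male 2 (adjusted p = 0.104 by edgeR), within short-fragment libraries (adjusted p = 0.504 by edgeR), with rat number as a block (adjusted p = 0.1 by edgeR) and with the meningeal list as a term (adjusted p = 0.407 by edgeR). The log2 fold change was 0.18 to 0.22 when 1 rat was left out and 0.18 to 0.27 under the other alternatives. Cbl averaged 42.3 ± 2.26 CPM (SD, n = 6) in intact females and 42.8 ± 3.63 CPM (SD, n = 6) in OVX females.

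**Figure D3:**
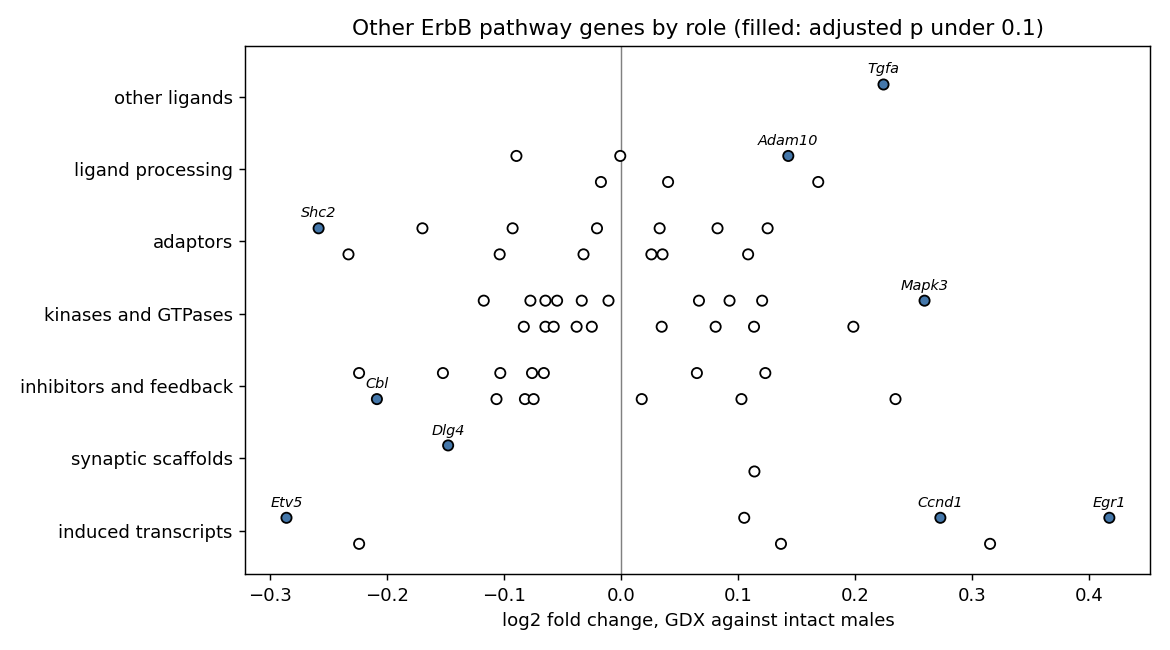
Log2 fold change, GDX against intact males, of the 62 other ErbB pathway genes tested, 1 point per gene, on a line for each role. Filled and named points have an adjusted p under 0.1 by edgeR, 5 to the right of 0 and 4 to the left. Points are offset up and down within a role for legibility.

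The members also varied from rat to rat within groups, and this variation was set against the cell markers. For each of the 8 members and 13 marker lists, log2 levels with the group means removed were correlated over the 22 rats, which gave 104 relations. Of these, 3 had an adjusted p under 0.05 for Pearson's r by a two-sided permutation test within groups, and each of the 3 concerned Nrg1. These relations were chosen for testing after the data had been seen.

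Nrg1 went up and down with the motor neuron markers. In intact male 6 Nrg1 stood at 101 CPM and the motor neuron list summed to 636 CPM, the highest values of both. In OVX female 5 Nrg1 stood at 48.4 CPM and the list summed to 328 CPM, the lowest values of both. Pearson's r was 0.865 (permutation p = 9e-05, adjusted p = 0.00676) and Spearman's rho 0.765 (permutation p = 0.00049, adjusted p = 0.0255). Without the 2 rats whose Nrg1 level, group means removed, lay farthest from its median, r was 0.786. It was 0.83 within the 15 short-fragment and 0.891 within the 7 long-fragment libraries. In the relations below, the 2 farthest rats were likewise chosen by the level of the member, not of the list.

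Markers of inhibitory and dorsal horn neurons went the opposite way. Nrg1 and the list of inhibitory interneurons (Gad1, Gad2, Slc32a1, Slc6a5 and Pvalb) had an r of -0.74 (permutation p = 0.00013, adjusted p = 0.00676) and a rho of -0.719 (permutation p = 0.00028, adjusted p = 0.0255). This r was -0.632 without the 2 farthest rats, -0.604 within short-fragment and -0.862 within long-fragment libraries. With the dorsal horn list (Tac1, Pdyn, Penk, Lmx1b and Tlx3), r was -0.672 (permutation p = 0.00082, adjusted p = 0.0284) and rho -0.618 (permutation p = 0.00377, adjusted p = 0.098). This r was -0.569 without the 2 farthest rats, -0.714 within short-fragment and -0.53 within long-fragment libraries. Of these 5 genes, 4 passed the filter on low counts over all rats, and Tlx3 did not. Penk held 35.4 of a summed 38.9 CPM in GDX males and 45.8 of 48.8 CPM in intact males. The level of a list is a mean of log2 values, so that here it rests largely on genes with few reads. Whether Penk alone showed the relation was not tested. The general neuronal list had a positive r with Nrg1 that did not pass the adjustment (r 0.358, permutation p = 0.0251, adjusted p = 0.326; rho 0.273, permutation p = 0.194, adjusted p = 0.947). This r was 0.261 without the 2 farthest rats, 0.31 within short-fragment and 0.488 within long-fragment libraries.

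For Erbb3 no relation passed the adjustment at 0.05, and 4 of 13 lists had an unadjusted permutation p under 0.05 for r. The meninges and fibroblast list had an r of -0.617 with Erbb3 (permutation p = 0.00575, adjusted p = 0.144) and a rho of -0.653 (permutation p = 0.00315, adjusted p = 0.098). Without the 2 farthest rats r was -0.577, and it was -0.768 within short-fragment and -0.432 within long-fragment libraries. The Schwann list had an r of -0.588 with Erbb3 (permutation p = 0.00693, adjusted p = 0.144) and a rho of -0.491 (permutation p = 0.0361, adjusted p = 0.47). Without the 2 farthest rats this r was -0.45, and it was -0.771 within short-fragment and -0.29 within long-fragment libraries. The list of inhibitory interneurons had an r of 0.541 (permutation p = 0.0189, adjusted p = 0.281) and a rho of 0.606 (permutation p = 0.00611, adjusted p = 0.11), and r was 0.513 without the 2 farthest rats, 0.696 within short-fragment and 0.0865 within long-fragment libraries. Astrocytes had an r of -0.506 (permutation p = 0.0186, adjusted p = 0.281) and a rho of -0.588 (permutation p = 0.00637, adjusted p = 0.11), and r was -0.544 without the 2 farthest rats, -0.503 within short-fragment and -0.448 within long-fragment libraries. With mature oligodendrocytes r was 0.017 (permutation p = 0.944, adjusted p = 0.984; rho 0.152, permutation p = 0.529, adjusted p = 0.971). Each value is scaled to the size of its library, so that the levels within a library are not fully independent. Whether this shaped these relations was not tested.

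**Figure D4:**
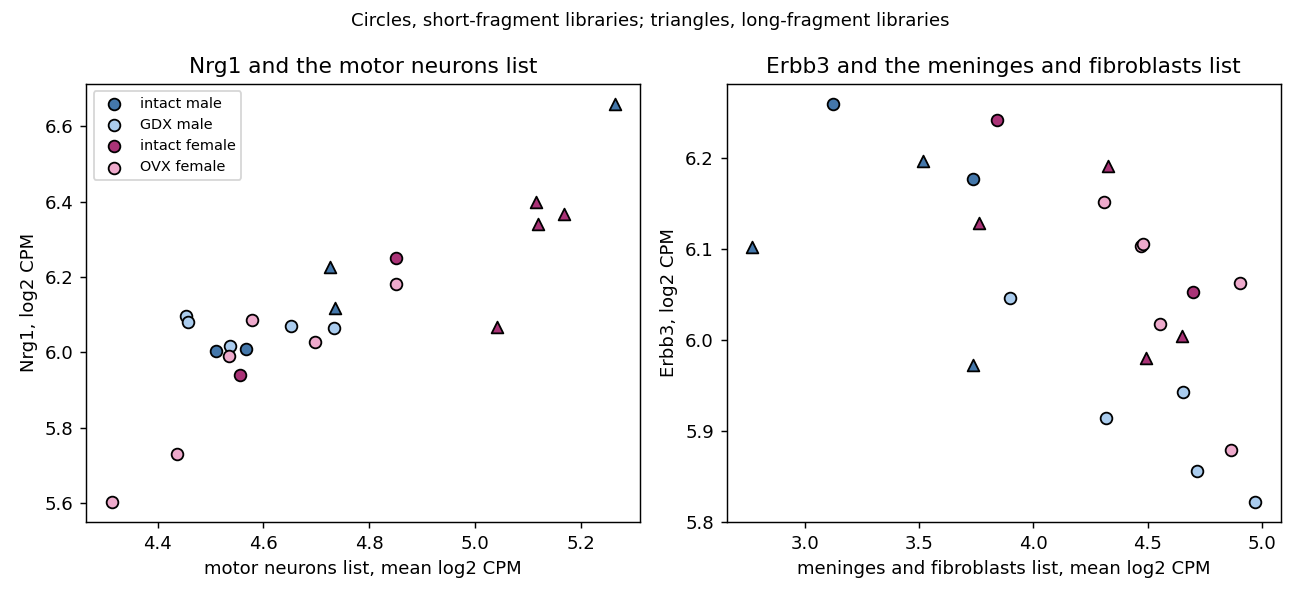
Log2 CPM of Nrg1 against the mean log2 CPM of the motor neuron list (left), and of Erbb3 against that of the meninges and fibroblast list (right), 1 point per rat for 22 rats, colours for the groups and triangles for long-fragment libraries. With group means removed, r was 0.865 on the left and -0.617 on the right. Intact males lie to the left in the right-hand plot and GDX males mostly to the lower right.

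The genes most like each member were found by the same measure over 15562 genes and 22 rats, and are given as a description. For Nrg1 they were Rnf115 (r 0.932), Fgf1 (r 0.928) and Nefl (r 0.915), of which Fgf1 encodes a growth factor and Nefl the light neurofilament chain. Nefl is itself in the list of general neuronal markers. For Erbb3 they were Arhgap23 (r 0.795), ENSRNOG00000007367, whose symbol is listed as the number 44443 (r 0.792), and Shank2, a postsynaptic scaffold gene (r 0.791). For Egfr the nearest genes were Slc22a8 (r 0.809), Reps1 (r 0.763) and Vstm4 (r 0.762), and for Nrg2 they were Gak (r 0.79), Paqr4 (r 0.775) and Dlg5 (r 0.755). Those of Erbb4, Erbb2, Btc and Hbegf began with AABR07004130.1 (r 0.748), Helq (r 0.857), Srp54a (r 0.746) and Lats1 (r 0.775). Without the 2 rats farthest from the member's median, r was lower for each gene named here. It then ran from 0.543 (Gak with Nrg2) to 0.889 (Fgf1 with Nrg1). Srp54a had 0.564, AABR07004130.1 0.573 and Paqr4 0.6, and Spearman's rho of Paqr4 over 22 rats was 0.471.

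The members were also set against each other, and the pairs with the largest r by size are given. Nrg1 and Egfr had an r of 0.601, Egfr and Erbb3 -0.467, Nrg1 and Erbb3 -0.419 and Erbb2 and Erbb4 -0.495, over 22 rats with group means removed, given without a test. OVX female 5 had the lowest level of both Nrg1 (48.4 CPM) and Egfr (11.5 CPM), and Erbb2 had 6 to 33 reads per library. Whether these r values depend on single rats was not tested.

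Because removal of the gonads removes the main source of sex steroids, the sequence before each member's start was searched for hexamers of the sites that steroid receptors bind. RefSeq promoters of the GRCr8 build were matched for 6 of the 8 members, and those of Nrg1 and Erbb3 were not analysed here. In the 250 bases before the start, the hexamer AGGTCA of oestrogen receptor sites (or TGACCT on the other strand) occurred in 0 of 6 members and in 14.1% of 33469 promoters. The hexamer AGAACA (or TGTTCT) of androgen receptor sites occurred in 0 of 6 members and in 17.5% of promoters. The GC box GGGCGG (or CCGCCC) occurred in 5 of 6 (Btc, Egfr, Erbb2, Erbb4 and Nrg2) and in 30.5% of promoters. The absence of these letters from this window says nothing of the receptors elsewhere. The promoters of 2 receptors are shown to give the sequence context of the members whose group means differed least, 5′ to 3′ on the gene's strand with the GC box in capitals. The Erbb4 window lies at chr9:78045607-78045856 (minus strand) and Egfr at chr14:95378376-95378625 (plus strand), and their GC contents are 73.6% and 63.6%.
Erbb4: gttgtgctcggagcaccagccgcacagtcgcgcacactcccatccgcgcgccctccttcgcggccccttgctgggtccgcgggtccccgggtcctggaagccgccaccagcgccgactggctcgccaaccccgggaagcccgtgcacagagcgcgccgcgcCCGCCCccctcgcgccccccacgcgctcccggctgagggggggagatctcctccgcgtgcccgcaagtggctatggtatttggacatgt
Egfr: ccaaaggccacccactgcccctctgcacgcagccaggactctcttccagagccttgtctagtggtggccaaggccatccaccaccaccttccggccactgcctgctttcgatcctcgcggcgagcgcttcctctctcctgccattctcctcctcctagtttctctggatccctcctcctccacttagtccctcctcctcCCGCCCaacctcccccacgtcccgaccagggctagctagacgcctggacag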

How the data were processed

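RNA of the ventral cervical cord was sequenced by the authors from a stranded total RNA kit per the study's methods, whereas the labels name TruSeq. Reads were trimmed with Trimmomatic and mapped to Rnor_6.0 with Hisat2 per the methods, while the submitters' processing notes name TopHat2 2.0.13. The deposited values are raw counts per gene made by the authors with Subread featureCounts, and its strand and multi-mapping settings are not given in the sources used here, so that overlapping and antisense genes cannot be told apart. Fragment class was taken from the study's methods.

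Counts of 22 libraries were tested in R 4.3.3 with edgeR 4.0.16: filterByExpr, TMM scaling, quasi-likelihood F test and Benjamini-Hochberg adjustment over all genes tested, called at an adjusted p under 0.1. Each comparison used the rats of its own groups, and the difference of responses used all 22. CPM and log2 CPM (prior count 2) used TMM factors of all 22 libraries. Intervals are 95%. Correlations used 100000 permutations within groups (Python 3.11.15, numpy 2.4.6). The edgeR and DESeq2 fits of the 5 group comparisons were tested on simulated data; the correlations were not. No 2 libraries of a group agreed within counting noise. Named genes were the 9 members, the called genes among 67 other pathway genes (up to 12 a comparison), and the 3 genes nearest to each member. The members and lists were chosen with earlier results of these data known. Alternatives tried were DESeq2 1.42.0, other size factors, other filters, fragment class, RNA integrity (RIN), a model of all 22 rats, rat number as a block, the meningeal list as a term, and leaving out each rat. P-values compare single libraries of separate rats.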

Additional observations from a re-analysis of the deposited data

Results flagged for a closer look

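In 10 of 84 sets of group values searched, a single rat stood apart from the rest of its group by more than Dixon's 95% criterion allows, where chance gives about 1 in 20. Among the members, OVX female 5 had 11.5 CPM of Egfr against 15.9 to 17.6 CPM in the other OVX females. OVX female 6 had 6.95 CPM of Hbegf, against 4.68 to 5.16 CPM in the others. Intact female 3 had 17.0 CPM of Nrg2, against 10.6 to 12.7 CPM in the others.

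The remaining 7 concerned the mean log2 CPM of marker lists. For astrocytes, intact female 1 had 8.43 (others 8.58 to 8.64) and intact male 1 had 8.499 (others 8.56 to 8.58). Intact female 1 also had an ependymal level of 1.20, against 0.60 to 0.78 in the others. Intact female 2 had an erythroid level of -0.087, against 1.57 to 2.30. OVX female 4 had a mature oligodendrocyte level of 10.61 (others 10.71 to 10.75) and a microglial level of 3.75 (others 4.03 to 4.17). Intact female 5 had a microglial level of 3.66, against 3.91 to 4.03 in the other intact females.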

How the results depend on the processing

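For the members and named pathway genes, 1101 values were recomputed under the alternatives. Of these, 985 kept their direction and their side of the threshold, 57 called values lost their call, 4 values gained one, and 55 uncalled values changed sign. No called value changed direction. The call of Erbb3 in males held in 9 of 10 alternatives and without any of the 10 rats (log2 fold change -0.27 to -0.20, adjusted p 0.0767 at most by edgeR).

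The number of genes called moved more than the members did, and the cause was not tested. In GDX against intact males (1995 called) it was 796 with fragment class as a term, 440 in short-fragment libraries, 1262 with RIN as a term, and 1 with the meningeal list as a term, where 0 members were called. Leaving out 1 rat gave 1202 (without GDX male 5) to 2446 (without GDX male 1), with 1 to 2 members called. In OVX against intact females (5 called) it was 174 by DESeq2, 11 with no filter, 3 with fragment class, 11 with RIN and 9 in the model of 22 rats. Leaving out 1 rat gave 0 (without OVX female 1 or 6) to 113 (without intact female 1). For the difference between responses (18 called) it was 243 by DESeq2, 33 with no filter, 6 with a filter at 1 CPM, 6 with fragment class, 5 in short-fragment libraries, 5 with RIN and 1 with the meningeal list. Leaving out 1 rat gave 1 (without GDX male 5) to 275 (without GDX male 1). Between intact males and intact females (599 called) it was 34 in short-fragment libraries and 18 with the meningeal list. Leaving out 1 rat gave 352 (without intact male 1) to 777 (without intact female 1), with 0 to 1 members called. Between GDX males and OVX females (35 called) it was 130 by DESeq2, 61 in the model of 22 rats and 289 with the meningeal list. Leaving out 1 rat gave 23 (without OVX female 1) to 44. Fragment class gave no value there, since those libraries were all short.

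Rats share numbers across groups, but same-numbered rats did not deviate together (correlations of their deviations from -0.077 to 0.031), and 1 of 4 males and 0 of 6 females correlated best with its own number. With the replicate block, 1274 genes were called in males after castration, 0 after ovariectomy, 0 for the difference between responses and 255 between intact males and females, and Erbb3 had an adjusted p of 0.0527 by edgeR. Depth limits Erbb2 and Btc most, with at most 33 and 20 reads per library.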
